A study of Mus musculus with 9 samples.

Results

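The genes described here encode the machinery that moves, docks, primes and fuses secretory vesicles. They were taken by name from the deposited table of windows, in which each window is a short genomic interval assigned to a gene. The rule kept protein-coding genes named as synaptotagmins (Syt), synaptotagmin-like proteins (Sytl), syntaxins (Stx), syntaxin-binding proteins (Stxbp), Snap and Vamp proteins, Rab GTPases, regulators of Rab3, Rims, complexins (Cplx), Unc13 and Cadps. It found 118 windows assigned to 104 genes, of 17641 windows and 14964 genes in all, and no measured value entered the choice. The windows are 401 bp wide except 1 window at Rab3a, so levels were compared between genes without a correction for width. Other differences between places in the genome were not corrected for here.

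The study profiled chromatin of mouse pancreatic endocrine cell lines by chromatin immunoprecipitation and sequencing (ChIP-seq), with an antibody labelled H3K9me3, trimethylation of lysine 9 of histone H3, a mark known from silent chromatin. The groups were alphaTC1, a glucagon-producing line of murine alpha cells, carrying an empty vector for 5 days (n = 2), the same line carrying short hairpin RNA against Smndc1, a splicing factor, for 5 days (n = 2), and betaTC3, an insulin-producing line of murine beta cells with no treatment (n = 2). Each group also had 1 input sample, which makes 9 samples. The lines were compared to find where alpha and beta cells differ, and the knockdown to find what loss of Smndc1 does to alpha cell chromatin. The betaTC3 cells were not transduced, so cell line and transduction cannot be told apart in a comparison of the lines. Separate cultures are not named in the labels, so every p-value measures only the spread between these libraries, which may be technical.

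Endocrine cells store hormone in granules that fuse with the plasma membrane when calcium rises. Rab3 and Rab27 GTPases and their effectors bring granules to the membrane, Unc13 and Cadps proteins prime them, and SNARE proteins (syntaxins and Snap proteins on the target membrane, Vamp proteins on the granule) pull the membranes together, with Stxbp proteins as chaperones. Synaptotagmins sense calcium, and complexins bind the assembled SNAREs and time the fusion. Other Rab GTPases and syntaxins serve the endoplasmic reticulum, Golgi and endosomes in all cells.

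Values are scaled reads, which are whole reads multiplied by 1 factor per library, as the authors deposited them. The 6 libraries held 4530066 to 9924487 reads in windows, and 3 reads, used here as the floor of detection, correspond to 2.396 to 4.19 scaled reads. Although the libraries are labelled H3K9me3, the windows lay mostly at starts of genes: 101 of 118 windows of the vesicle genes (85.6%) and 65.5% of all windows were within 1 kb. A window within 1 kb of the start was found for 59 of 77 ribosomal protein genes (76.6%), which are active in all cells. The same was found for 2 of 1106 genes of olfactory receptors (0.181%), which are known mainly from sensory neurons. These positions go against the label. The values below are therefore called signal of the libraries labelled H3K9me3, with no meaning given to a higher or lower level. In a bulk library, fewer cells with signal and less signal per cell cannot be told apart. Sums over marker windows separated the lines, taking the window nearest each gene start. Over 6 alpha cell genes they held 2524 to 3325 scaled reads in alphaTC1 and 417 to 443 in betaTC3, and over 6 beta cell genes 699.9 to 1129 and 5263 to 5763. Nearly all of the alphaTC1 sum over beta cell genes came from Nkx6-1, at 697.5 to 1129 there and 1135 to 1223 in betaTC3. That gene did not separate the lines. Sox9, the marker of duct cells that had windows, held 465 to 601 scaled reads in alphaTC1 and 3.99 to 4.76 in betaTC3. The window of the delta cell gene Sst nearest its start held 0 to 2.65 and 93.3 to 107. A second one, 7404 bp upstream, held 33.1 to 43.3 and 32.7 to 80.9. The window of the fibroblast gene Col1a1 nearest its start held 69.2 to 82.5 and 16.8 to 33.3. A second one, 5017 bp into the gene, went the other way, with 2.39 to 9.78 and 40.7 to 67.6. The sum over 3 neuronal genes was 1163 to 1742 and 1293 to 1320. Among these, Neurod6 held 317 to 372 and 6.66 to 7.19 at its start, while Elavl4 and Tubb3 kept signal in both lines. The part of these cell types in the results was not tested.

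The median signal of the vesicle genes was above that of all windows in every group. Their median scaled reads were 526 in empty-vector cells, 406 after knockdown and 463 in betaTC3, against 319, 247 and 286 over all windows. Their windows lay more often within 1 kb of a gene start (85.6%, against 65.5% of all windows). The higher median is therefore not shown to be particular to these genes. The most signal among them lay at Rab5c, a GTPase of early endosomes, in both alphaTC1 groups (2736 and 2263 scaled reads on average) and at Rab22a, another endosomal Rab, in betaTC3 (1883). Between betaTC3 and empty-vector alphaTC1, 54 of the 118 windows (45.8%) passed limma at an adjusted p below 0.05, against 55.2% of all windows. Of these, 20 were higher in betaTC3 (16.9%, against 22.1% of all windows) and 34 lower (28.8%, against 33.2%), so neither share exceeded the background. The median change in log2 was -0.12 for the vesicle genes and -0.13 for all windows. With each library centred on its median the counts became 36 higher and 34 lower (66.2% of all windows passed, 34.3% higher and 31.9% lower), so the share of higher calls depends on the scaling. On the recovered reads, edgeR called 74 windows with its own scaling (67.8% of all windows) and 58 with the authors' scaling (59.2%), and DESeq2 called 68 (61.9%). The groups did not overlap at 37 windows higher and 56 lower in betaTC3 (31.4% and 47.5%, against 34.1% and 48.7% of all windows).

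**Figure D1:**
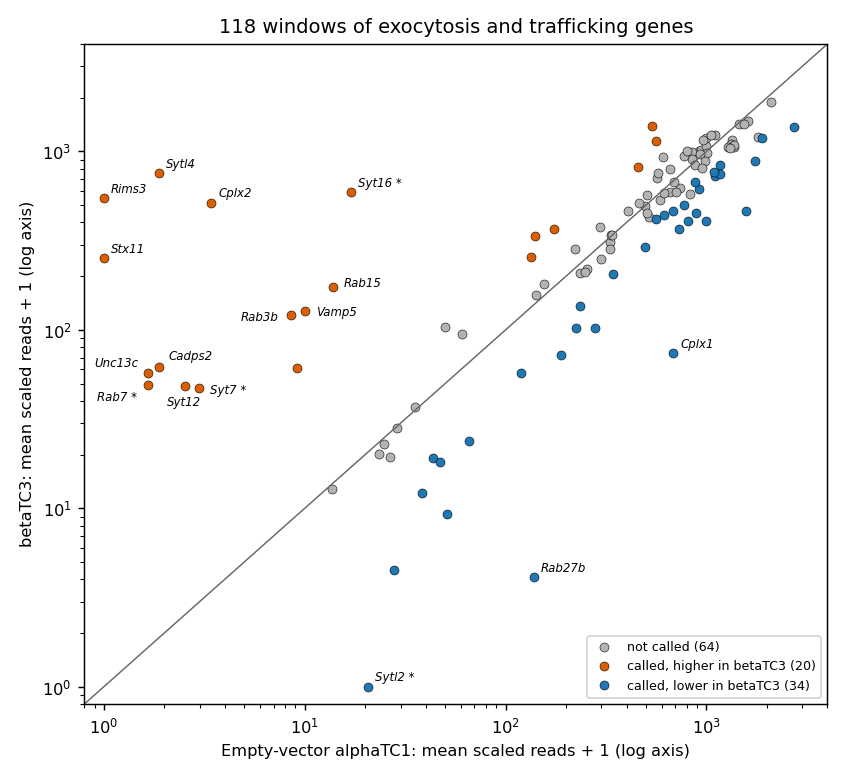
Mean scaled reads + 1 of the 2 empty-vector alphaTC1 libraries (x axis, log) against the 2 betaTC3 libraries (y axis, log) for the 118 windows, with the 20 windows called higher by limma in orange, the 34 called lower in blue and the 64 not called in grey. Named windows changed by more than 3 in log2, an asterisk marks windows over 1 kb from the gene start, and the line marks equal values. Most windows above 100 scaled reads lie near the line, and 13 windows at low alphaTC1 values lie far above it.

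Large differences were few and mostly in 1 direction. A fitted change above 3 in log2 was called for 13 windows higher in betaTC3 (11.02%, against 11.8% of all windows) and for 3 windows lower (2.54%, against 7.76%). The higher ones were assigned to Cadps2, Rab15, Rab3b, Rab7, Rims3, Unc13c, Vamp5, Cplx2, Sytl4, Syt12, Syt16, Syt7 and Stx11, and the lower ones to Rab27b, Cplx1 and Sytl2. Of the 34 lower calls, 17 were smaller than 1 in log2. In 16 alternative settings and fits, which include leaving out each library, 18 of the 20 higher calls and 15 of the 34 lower calls were made every time. The exceptions among the higher calls were Rab3b and Stx2. The shares of all windows with small lower calls, or with calls made every time, are not given. These counts are therefore not shown to be particular to the vesicle genes. Over windows of at least 100 scaled reads, the median change of all genes was -0.73 on chromosome 11, where 5 of 7 vesicle windows were lower, and -0.59 on chromosome 7, where 7 of 10 were lower. It was 0.64 on chromosome 14 and 0.42 on chromosome 12, where 2 of 2 and 3 of 5 were higher. On chromosome 6 it was -0.43, and 3 of 7 vesicle windows were higher and 2 lower, and on chromosome 19 it was 0.11 with 3 of 7 higher and 1 lower. The median was also -0.43 on chromosome 1, with 5 of 9 vesicle windows lower and 0 higher. On chromosome 17 it was -0.31, with 0 higher and 0 lower of 3. On chromosome 18 it was 0.26, with 0 higher and 1 lower of 4. The share of all windows called on each chromosome is not given, and the part of the chromosome in these calls was not tested.

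**Figure D2:**
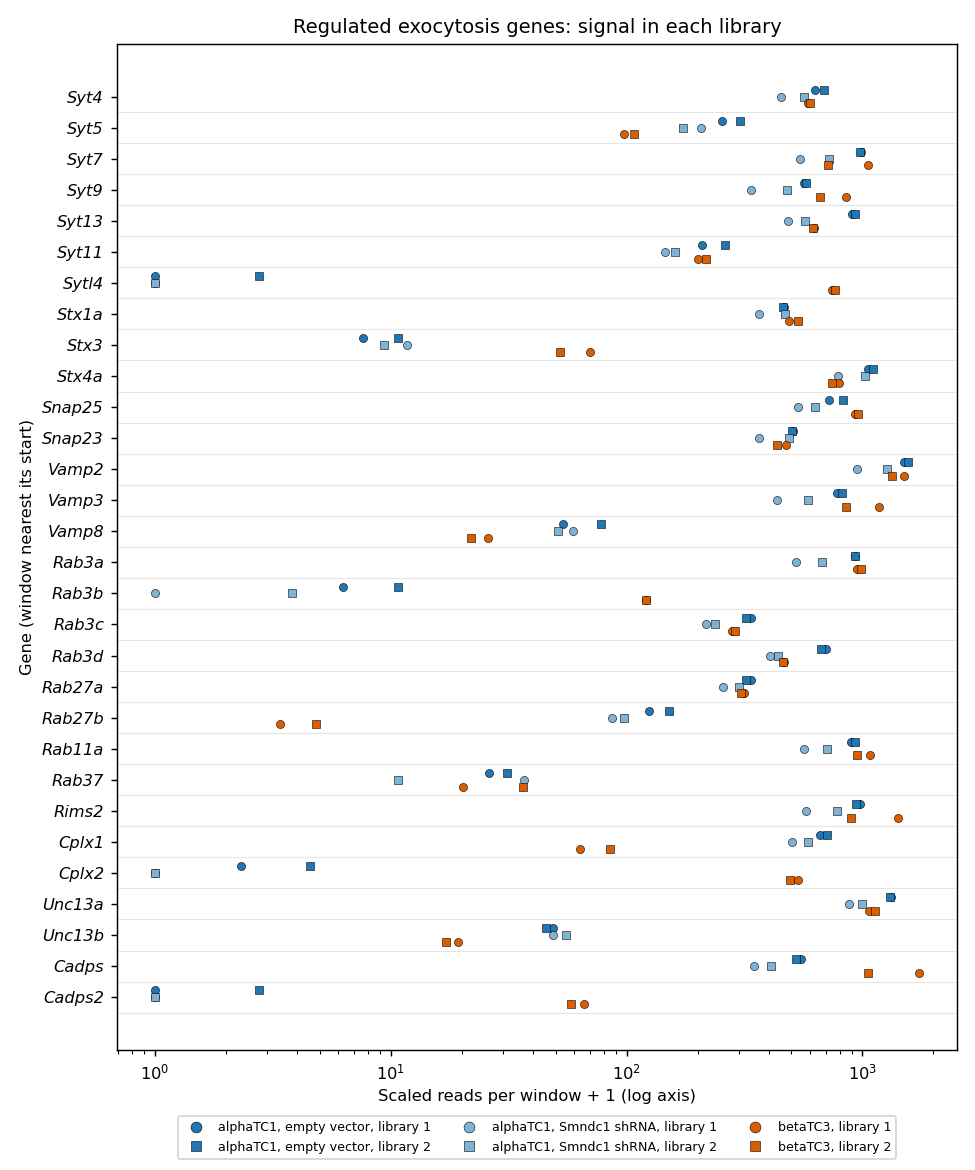
Scaled reads + 1 per window (x axis, log) in each of the 6 libraries at 30 genes of regulated exocytosis (y axis), using the window nearest the gene start. Circles are library 1 and squares library 2 of empty-vector alphaTC1 (dark blue), Smndc1 knockdown alphaTC1 (light blue) and betaTC3 (orange). Most genes have 6 points close together, whereas Sytl4, Rab3b, Cplx2 and Cadps2 have betaTC3 points far to the right and Rab27b and Cplx1 far to the left.

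A list of 33 genes known for regulated exocytosis had windows at 32 (not at Rims1), and at the window nearest the gene start 6 were higher in betaTC3, 8 lower and 18 did not pass, beside 22.1% higher and 33.2% lower over all windows. The proteins best known for insulin and glucagon granule fusion were among the 18. Stx1a, the syntaxin of the plasma membrane that granules fuse through, held 463 and 459.9 scaled reads in empty-vector cells, 364 and 467 in knockdown cells and 488 and 534 in betaTC3 (log2 change from empty vector to betaTC3 of 0.14 ± 0.16 SE, adjusted p = 0.466 by limma). Vamp2, its granule partner, held 1504 and 1565 scaled reads in empty-vector cells, 947 and 1266 in knockdown cells and 1505 and 1338 in betaTC3 (-0.11, adjusted p = 0.646), so its groups overlapped. Snap25, which completes the complex, held 722 and 827 scaled reads in empty-vector cells, 533 and 626 in knockdown cells and 926 and 955 in betaTC3 (0.28, adjusted p = 0.148). Both betaTC3 libraries were above both empty-vector libraries at Stx1a and Snap25. With libraries centred, Stx1a, Snap25, Syt9, Vamp3 and Rab11a passed, higher in betaTC3 by 0.33, 0.47, 0.57, 0.50 and 0.32, while Vamp2 did not (0.07).

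Promoter sequences are shown for 4 genes that carry the differences between the lines and for Stx1a, which did not pass. Each is the 250 bases before the transcription start in RefSeq (GRCm38.p6), read 5′ to 3′ on the gene's strand. Capitals mark matches, on either strand, to GGGCGG (SP/KLF factors), TGACG (the core of the cAMP response element), TATAAA (the TATA box), CAGCACC or GGACAG (parts of the RE1 silencer), TGACGTCA (the full cAMP element), GCGCATGCG (NRF1), TGCTGAC (MAF) and TGTTTAC (FOX). They lie at chr5:108550028-108550277, minus strand (Cplx1), chrX:133981813-133982062, minus strand (Sytl4), chr4:120854549-120854798, plus strand (Rims3), chr6:23839422-23839671, minus strand (Cadps2) and chr5:135023232-135023481, plus strand (Stx1a).
Cplx1: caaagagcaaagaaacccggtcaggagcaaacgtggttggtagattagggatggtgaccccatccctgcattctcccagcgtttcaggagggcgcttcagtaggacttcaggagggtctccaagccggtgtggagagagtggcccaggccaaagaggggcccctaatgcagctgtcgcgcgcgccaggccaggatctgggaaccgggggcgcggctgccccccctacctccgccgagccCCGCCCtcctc
Sytl4: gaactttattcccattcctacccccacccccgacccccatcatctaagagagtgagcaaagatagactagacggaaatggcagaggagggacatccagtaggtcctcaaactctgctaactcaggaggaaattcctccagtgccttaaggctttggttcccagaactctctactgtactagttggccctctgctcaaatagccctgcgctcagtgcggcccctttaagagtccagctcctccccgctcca
Rims3: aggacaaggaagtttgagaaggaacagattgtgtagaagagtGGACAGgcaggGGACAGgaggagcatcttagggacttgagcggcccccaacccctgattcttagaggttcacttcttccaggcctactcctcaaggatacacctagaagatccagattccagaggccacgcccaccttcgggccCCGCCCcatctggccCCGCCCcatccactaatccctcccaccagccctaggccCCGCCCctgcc
Cadps2: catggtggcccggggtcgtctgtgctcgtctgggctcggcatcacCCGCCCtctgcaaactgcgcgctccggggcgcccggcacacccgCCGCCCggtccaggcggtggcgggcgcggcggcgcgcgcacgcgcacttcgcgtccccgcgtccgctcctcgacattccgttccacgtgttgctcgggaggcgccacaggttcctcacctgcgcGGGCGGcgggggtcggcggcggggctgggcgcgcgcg
Stx1a: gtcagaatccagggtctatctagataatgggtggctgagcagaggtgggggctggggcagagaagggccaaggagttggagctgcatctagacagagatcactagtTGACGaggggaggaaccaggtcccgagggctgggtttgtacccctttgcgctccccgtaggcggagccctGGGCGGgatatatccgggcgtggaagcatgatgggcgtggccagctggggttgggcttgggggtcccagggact
The promoter of Sytl4 has no match and 5 CpG dinucleotides, and that of Cadps2 has 3 matches to GGGCGG and 44 CpG, and both genes were near 0 in alphaTC1 and carried signal in betaTC3.

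Among Rab GTPases, the switches that direct vesicles, 5 of 51 windows were higher in betaTC3 (9.80%, against 22.1% of all windows), 13 lower (25.5%, against 33.2%) and 33 did not pass. The Rab3 proteins sit on secretory granules. Rab3a held 927 and 930.4 scaled reads in empty-vector cells, 522 and 675 in knockdown cells and 944 and 982 in betaTC3 at its start (0.05 in log2, adjusted p = 0.802 by limma). Rab3c held 336 and 320.5 scaled reads in empty-vector cells, 216 and 236 in knockdown cells and 279.5 and 288 in betaTC3 (-0.21, adjusted p = 0.211). Neither passed. Rab3b differed: its window (chromosome 4, 108879090 to 108879490, mm10) held 5.296 and 9.77 scaled reads in empty-vector cells, 0 and 2.795 in knockdown cells and 119.8 and 119.9 in betaTC3. Both betaTC3 libraries were above all alphaTC1 libraries, 15.9-fold over the empty vector on average (log2 change 3.88 ± 0.63 SE, adjusted p = 0.00211). That call was lost without betaTC3 library 1 (adjusted p = 0.0581), without betaTC3 library 2 (0.0554) and with a pseudocount of 0.1 (0.0772). At Rab3d, a Rab3 of exocrine granules, both windows were lower in betaTC3. The one at the start held 700.4 and 664 scaled reads in empty-vector cells, 404 and 437 in knockdown cells and 465 and 459.6 in betaTC3 (-0.56, adjusted p = 0.00732), and without empty-vector library 1 or 2 its adjusted p was 0.0749 or 0.0530.

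The pair of Rab27 genes, whose proteins tether granules to actin and the membrane, was unlike. Rab27a held 336 and 321 scaled reads in empty-vector cells, 256 and 298 in knockdown cells and 312 and 305 in betaTC3 (log2 change -0.09, adjusted p = 0.603 by limma). Rab27b held 123 and 151 scaled reads in empty-vector cells, 86.00 and 96.4 in knockdown cells and 2.396 and 3.81 in betaTC3. The betaTC3 libraries lay near the floor and below all alphaTC1 libraries, 44.2-fold lower on average than with the empty vector (log2 change -5.09 ± 0.27 SE, adjusted p = 1.68e-05). Rab37, found on insulin granules, was low throughout, at 25.2 and 30.2 scaled reads in empty-vector cells, 35.8 and 9.78 in knockdown cells and 19.2 and 35.2 in betaTC3, with overlapping groups (adjusted p = 0.921). Rab11a of recycling endosomes held 896 and 931 scaled reads in empty-vector cells, 564 and 706 in knockdown cells and 1072 and 949.7 in betaTC3 (adjusted p = 0.485).

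Of the Rabs with duties outside granules, Rab15, a GTPase of endosome recycling, held 13.2 and 12.4 scaled reads in empty-vector cells, 10.7 and 11.2 in knockdown cells and 234 and 111 in betaTC3 at its start, and both betaTC3 libraries were above all others (13.5-fold over the empty vector, adjusted p = 0.000282 by limma). Rab2b of the Golgi and Rab32, known from melanosomes, were higher by 1.03 and 0.92 in log2 (adjusted p = 0.00106 and 0.00524). Rab5c held 2586 and 2886 scaled reads in empty-vector cells, 1982 and 2544 in knockdown cells and 1327 and 1395 in betaTC3 and was lower in betaTC3 (-1.005 ± 0.21 SE, adjusted p = 0.00586). Its call was lost without either empty-vector library (adjusted p = 0.0533 without library 1 and 0.0857 without library 2) and without either betaTC3 library (0.0911 and 0.0746), and it lies on chromosome 11. Rab6a of the Golgi was lower at 2 windows, with a change of -2.63 at the one 7371 bp upstream, which held 25.2 and 28.4 scaled reads in empty-vector cells, 26.3 and 27.95 in knockdown cells and 3.19 and 3.81 in betaTC3, and of -1.05 near the start (96.6 and 139 against 47.9 and 64.7 scaled reads). The second of these calls was lost without empty-vector library 2 and without betaTC3 library 1 (adjusted p up to 0.105). The endosomal Rab5a (-0.04), Rab7 at its start (0.12), Rab14 (0.10) and Rab22a (-0.16) did not pass, nor did Rab8a of polarised transport (-0.20).

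Regulators and effectors of these Rabs followed no single direction. Rab3gap1, a subunit of the complex that switches Rab3 off, was lower in betaTC3 (-0.63 in log2, adjusted p = 0.0159 by limma), a call lost without any 1 of the empty-vector or betaTC3 libraries (adjusted p up to 0.135), while Rab3gap2, its partner subunit, did not pass (-0.38, adjusted p = 0.0629). Rab3il1, an exchange factor of Rab3, was lower at a window 16550 bp from the listed start (226 and 239 against 119.8 and 149 scaled reads, adjusted p = 0.00624), which lies within 1 kb of another RefSeq start of the gene. That call was lost without empty-vector library 2 and with DESeq2 (adjusted p up to 0.0553). Sytl4, also called granuphilin, is a Rab27 effector that docks insulin granules. Its window (chromosome X, 133981346 to 133981746) held 0 and 1.78 scaled reads in empty-vector cells, 0 and 0 in knockdown cells and 745 and 768 in betaTC3. The alphaTC1 libraries were at or under the floor, and the ratio of pooled reads of betaTC3 over empty vector was 711 (95% counting interval 196 to 5874, adjusted p = 1.77e-05). Sytl2, a related Rab27 effector, had a window 13855 bp inside the gene that held 17.2 and 22.2 scaled reads in empty-vector cells, 21.5 and 30.7 in knockdown cells and 0 and 0 in betaTC3. It was thus at 0 in betaTC3 and at least 7.505-fold lower than with the empty vector, taking 3 reads per library (adjusted p = 5.18e-05).

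Rims proteins link Rab3 to the fusion site. Rims2, the form known from insulin granules, held 972 and 943 scaled reads in empty-vector cells, 577 and 783 in knockdown cells and 1410.3 and 897 in betaTC3 at its start and did not pass (0.23 in log2, adjusted p = 0.469 by limma). Rims3, a short form that lacks the Rab-binding part, held 0 and 0 scaled reads in empty-vector cells, 4.78 and 5.59 in knockdown cells and 691 and 402 in betaTC3 (chromosome 4, 120854903 to 120855303). The empty-vector libraries had no read, and betaTC3 was at least 165-fold higher (adjusted p = 6.86e-06). Rims4, the other short form, held 48.99 and 48.8 scaled reads in empty-vector cells, 27.5 and 34.9 in knockdown cells and 137 and 68.5 in betaTC3, with a change of 0.97 that missed the threshold (adjusted p = 0.0541).

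**Figure D3:**
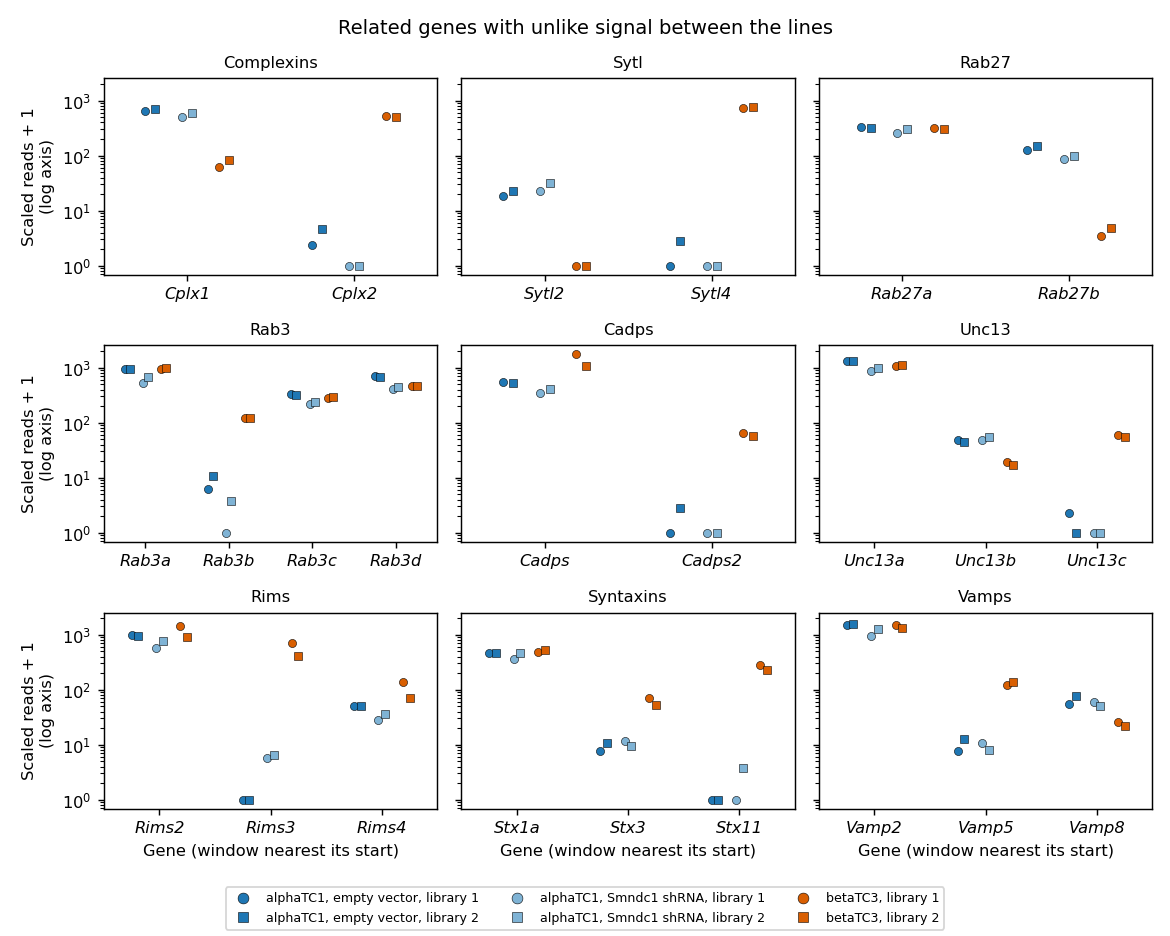
Scaled reads + 1 (y axis, log) in each library at related genes of 9 families (x axis, window nearest the gene start). Colours and symbols are empty-vector alphaTC1 in dark blue, Smndc1 knockdown alphaTC1 in light blue and betaTC3 in orange, library 1 as circles and library 2 as squares. Cplx1 and Rab27b are low in betaTC3 where Cplx2 is high and Rab27a is level, and Sytl2 at 0 in betaTC3 contrasts with Sytl4.

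Priming factors were higher in betaTC3 at both Cadps genes and mixed at Unc13. Cadps, which primes dense-core granules, held 551 and 523 scaled reads in empty-vector cells, 348 and 407 in knockdown cells and 1741 and 1051 in betaTC3, and both betaTC3 libraries exceeded all others (2.600-fold over the empty vector, log2 change 1.33 ± 0.24 SE, adjusted p = 0.00351 by limma). Cadps2, its relative (chromosome 6, 23838992 to 23839392), held 0 and 1.78 scaled reads in empty-vector cells, 0 and 0 in knockdown cells and 64.7 and 57.1 in betaTC3, a pooled ratio of 57.6 (95% counting interval 15.7 to 480.3, adjusted p = 0.000171). Cadps lies on chromosome 14, where all windows of at least 100 scaled reads had a median of 0.64.

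Unc13a, the main Unc13 priming factor of neurons and islets, held 1327 and 1309 scaled reads in empty-vector cells, 877 and 995 in knockdown cells and 1064 and 1128 in betaTC3 at its start and did not pass (-0.27, adjusted p = 0.163 by limma). A second window 3441 bp into the gene held 38.4 and 62.1 scaled reads in empty-vector cells, 41.8 and 48.9 in knockdown cells and 7.99 and 8.56 in betaTC3 and was lower in betaTC3 (-2.43, adjusted p = 0.000644). Unc13b held 47.7 and 44.4 scaled reads in empty-vector cells, 47.8 and 54.5 in knockdown cells and 18.4 and 16.2 in betaTC3 and was 2.66-fold lower in betaTC3 (adjusted p = 0.00259). Unc13c, known from the cerebellum, held 1.32 and 0 scaled reads in empty-vector cells, 0 and 0 in knockdown cells and 59.9 and 53.3 in betaTC3, a pooled ratio of 107 (95% counting interval 18.9 to 4259.6, adjusted p = 9.64e-05).

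Of 6 syntaxin-binding proteins, 2 were higher in betaTC3 (33.3%, against 22.1% of all windows), 1 lower (16.7%, against 33.2%) and 3 did not pass. Stxbp2, a Munc18 of epithelia and blood cells, held 143 and 135 scaled reads in empty-vector cells, 104 and 123 in knockdown cells and 311 and 355 in betaTC3 and was higher by 1.25 ± 0.16 SE (adjusted p = 0.000731 by limma). Stxbp6, which binds syntaxin in place of Vamp, was higher by 1.09 (adjusted p = 0.001900). Stxbp5l, a tomosyn that holds back SNARE assembly, held 1144 and 1199 scaled reads in empty-vector cells, 776 and 900.0 in knockdown cells and 745 and 740.4 in betaTC3 and was lower in betaTC3 (-0.66 in log2, adjusted p = 0.00689, and 0.0571 or 0.0790 without empty-vector library 1 or 2).

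Syntaxins were higher at 3 of 14 windows (21.4%, against 22.1% of all windows), lower at 4 (28.6%, against 33.2%) and did not pass at 7. Stx11, known from cytotoxic lymphocytes, held 0 and 0 scaled reads in empty-vector cells, 0 and 2.795 in knockdown cells and 276 and 226 in betaTC3 (chromosome 10, 12964028 to 12964428), at least 75.8-fold higher in betaTC3 than with the empty vector (adjusted p = 6.45e-05 by limma). Stx3, which serves apical and granule fusion, held 6.62 and 9.77 scaled reads in empty-vector cells, 10.7 and 8.39 in knockdown cells and 68.7 and 51.4 in betaTC3 and was 7.33-fold higher (adjusted p = 0.000442). Stx2 of the plasma membrane was higher by 0.83 (adjusted p = 0.00615), a call that was lost without empty-vector library 1 (0.0631). Stx16, of the trans-Golgi network, held 1554 and 1576 scaled reads in empty-vector cells, 1014 and 1224 in knockdown cells and 470.4 and 456 in betaTC3 and was 3.38-fold lower in betaTC3 (log2 change -1.75 ± 0.15 SE, adjusted p = 0.000102). Stx18 of the endoplasmic reticulum and Stx4a of the plasma membrane were lower, with changes of -0.97 and -0.50 (adjusted p = 0.00271 and 0.0418). The call at Stx4a was lost without any 1 of the empty-vector or betaTC3 libraries (adjusted p = 0.130 to 0.222), without the intensity trend (0.0669) and with the replicate block (0.0683). Stx8, of late endosomes, passed narrowly (-0.36, adjusted p = 0.0496) and was called in 4 of 16 alternatives (adjusted p up to 0.432). Stx5a, Stx6, Stx7, Stx12 and Stx17 did not pass, with changes from -0.33 to 0.23.

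Of the other SNAREs, Vamp5, known from muscle, was higher in betaTC3 and Vamp8, of endosomes and exocrine granules, lower. The 2 genes are neighbours on chromosome 6. The window of Vamp5 (72380379 to 72380779) held 6.62 and 11.5 scaled reads in empty-vector cells, 9.56 and 6.99 in knockdown cells and 121 and 134 in betaTC3 (14.03-fold, adjusted p = 0.000138 by limma). That of Vamp8 (72390186 to 72390586) held 52.96 and 77.2 scaled reads in empty-vector cells, 58.5 and 50.3 in knockdown cells and 24.8 and 20.9 in betaTC3 (-1.45 in log2, adjusted p = 0.00395, and 0.0503 without betaTC3 library 2). Both groups of alphaTC1 were thus under the betaTC3 libraries at Vamp5 and above them at Vamp8. Vamp1, a neuronal relative of Vamp2, held 740.1 and 723 scaled reads in empty-vector cells, 528 and 581 in knockdown cells and 347 and 385 in betaTC3 and was 1.996-fold lower (adjusted p = 0.000701). Vamp3, Vamp4 and Vamp7 did not pass (0.32, -0.33 and 0.35), nor did Snap23 (-0.16) or Snap29 (-0.52). Snap91, a clathrin adaptor that is no SNARE despite its name, was lower (-0.49, adjusted p = 0.0397), a call made in 9 of 16 alternatives and lost without any 1 of the empty-vector or betaTC3 libraries (adjusted p up to 0.184).

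Synaptotagmins were higher in betaTC3 at 3 of 17 windows (17.6%, against 22.1% of all windows), lower at 7 (41.2%, against 33.2%) and did not pass at 7. Syt7, a calcium sensor of insulin and glucagon granules, held 981 and 976 scaled reads in empty-vector cells, 543 and 723 in knockdown cells and 1050.1 and 714 in betaTC3 at its start and did not pass (-0.18, adjusted p = 0.545 by limma). A window 3172 bp upstream of it held 1.32 and 2.66 scaled reads in empty-vector cells, 8.36 and 4.19 in knockdown cells and 35.9 and 56.1 in betaTC3 and was higher there (adjusted p = 0.000328), from 1 and 3 reads in the empty-vector libraries. Syt9, another calcium sensor of insulin granules, held 567 and 574 scaled reads in empty-vector cells, 334 and 477 in knockdown cells and 847 and 662 in betaTC3 (0.39, adjusted p = 0.155), with both betaTC3 libraries above both empty-vector libraries. Syt4 and Syt11, which do not sense calcium in the usual way, did not pass (-0.14 and -0.16).

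Syt5, of dense-core granules, held 253 and 301 scaled reads in empty-vector cells, 207 and 172 in knockdown cells and 96.6 and 107 in betaTC3 and was 2.73-fold lower in betaTC3 (log2 change -1.43 ± 0.17 SE, adjusted p = 0.000533 by limma). On its chromosome 7 the windows of at least 100 scaled reads had a median change of -0.59. Syt1 and Syt2, the fast sensors of synapses, had lower windows as well. The changes were -0.77 at Syt1 and -0.97 at the window of Syt2 nearest a RefSeq start (adjusted p = 0.00317 and 0.00135). Another window of Syt2 was lower (-1.70, adjusted p = 0.00574 by limma), a call made in 15 of 16 alternatives. A further one did not pass, with changes from -0.29 to 0.15 over the alternatives. Syt13, which lacks calcium binding, held 900.3 and 927 scaled reads in empty-vector cells, 485 and 569 in knockdown cells and 621 and 614 in betaTC3 and was lower in betaTC3 (-0.56, adjusted p = 0.0111). Without 1 empty-vector or betaTC3 library its adjusted p was 0.0567 to 0.0957. Syt14, with no known calcium binding, was lower (-0.47, adjusted p = 0.0355), and was called in 8 of 16 alternatives. Its adjusted p was 0.0585 to 0.197 without 1 of these libraries, 0.0595 with libraries centred, 0.0559 without the intensity trend, 0.161 with DESeq2 and 0.0596 with the replicate block.

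Syt12 and Syt16, which also lack calcium binding, were low in alphaTC1 and higher in betaTC3. Syt12 held 1.32 and 1.78 scaled reads in empty-vector cells, 0 and 0 in knockdown cells and 39.9 and 55.2 in betaTC3, a pooled ratio of 29.4 (95% counting interval 9.800 to 145, adjusted p = 5.22e-05 by limma). The window assigned to Syt16 lies 83406 bp into the gene (chromosome 12, 74081067 to 74081467) and held 10.6 and 21.3 scaled reads in empty-vector cells, 1.19 and 1.398 in knockdown cells and 553 and 626 in betaTC3, 36.96-fold higher in betaTC3 than with the empty vector (adjusted p = 4.25e-05). All betaTC3 libraries were above all alphaTC1 libraries at both.

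Complexins, which clamp and then release the SNARE complex, were called in opposite directions. Cplx1 (chromosome 5, 108549522 to 108549922) held 659 and 708 scaled reads in empty-vector cells, 504 and 586 in knockdown cells and 62.3 and 83.7 in betaTC3, and both betaTC3 libraries lay under all others, 9.36-fold lower than the empty vector on average (log2 change -3.22 ± 0.18 SE, adjusted p = 1.86e-05 by limma). Cplx2 (chromosome 13, 54371498 to 54371898) held 1.32 and 3.55 scaled reads in empty-vector cells, 0 and 0 in knockdown cells and 534 and 494 in betaTC3. It was at most 4 reads in an alphaTC1 library and higher in betaTC3 than with the empty vector (log2 change 7.31 ± 0.37 SE, adjusted p = 1.40e-05). Both calls were made in all 16 alternatives, with changes of the same sign.

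Where a gene had several windows, they could differ. At Rab7, the start held 1135 and 1069.7 scaled reads with the empty vector and 1495 and 964 in betaTC3, whereas a window 3444 bp upstream held 1.32 and 0 scaled reads in empty-vector cells, 0 and 0 in knockdown cells and 42.3 and 54.2 in betaTC3, a pooled ratio of 89.9 (95% counting interval 15.8 to 3582, adjusted p = 0.000129 by limma). At Rab3a, the windows 1701 and 517 bp upstream of the start were far below the start and did not pass. The first held 56.9 and 63.03 scaled reads with the empty vector and 92.6 and 94.2 in betaTC3 (0.63, adjusted p = 0.0522) and was called higher in 9 of 16 alternatives, among them centred libraries (0.81, adjusted p = 0.0114). The second held 17.2 and 30.2 with the empty vector and 18.4 and 25.7 in betaTC3. At Rab5b the start did not pass (-0.07), and a window 277 bp upstream was lower in betaTC3 (43.7 and 41.7 against 15.2 and 20.9 scaled reads, adjusted p = 0.0139), a call lost without empty-vector library 1 or 2 or betaTC3 library 1 and with DESeq2 (adjusted p up to 0.101). In all, 12 of the 104 genes had more than 1 window, with 26 windows between them, and such windows share a gene and are not independent. The window at -15188 bp assigned to Rab15 lies 474 bp from the start of Fntb and did not pass (0.32).

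After knockdown of Smndc1 in alphaTC1, no vesicle window passed limma (0 of 118, against 0.0% of all windows), and 57 had an unadjusted p under 0.05 (beside 34.97% of all windows). edgeR with its own scaling and DESeq2 also called 0 (0.0% and 0.0567% of all windows called). In these fits 15 and 8 vesicle windows had an unadjusted p under 0.05, and that share over all windows is not given. edgeR with the authors' scaling called 1, Syt16 (0.465% of all windows). Signal was lower in most windows all the same: 106 of 118 changes were below 0, beside 81.2% of those of all windows, with a median of -0.44, against -0.37 over all windows. The knockdown libraries lay below both empty-vector libraries at 86 windows (72.9%, against 64.6% of all windows) and above both at 5 (4.24%, against 6.85%). With libraries centred the median was -0.06 and still 0 windows passed. The knockdown libraries were also the shallowest, with 4530066 and 4800860 reads against 5983486 and 9224783 with the empty vector, and the part of depth and scaling was not tested. The count rested on knockdown library 2: without it 54 windows passed (1 higher and 53 lower, where 35.6% of all windows passed, 1.38% higher and 34.2% lower), in a fit where the remaining library has the spread of the other groups.

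**Figure D4:**
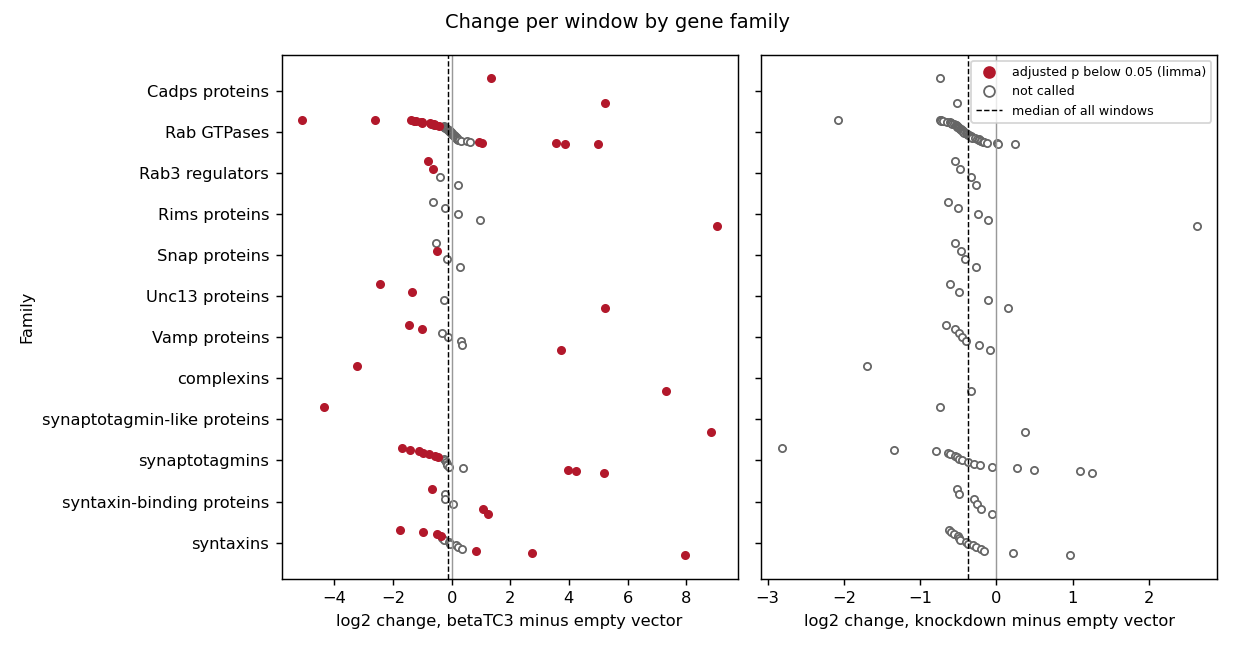
Change in log2 per window (x axes) for the 12 families (y axis), betaTC3 minus empty vector on the left and knockdown minus empty vector on the right. Filled points passed limma at an adjusted p below 0.05, open points did not, the dashed line is the median of all windows (-0.13 and -0.37) and the grey line marks 0. The left panel spans -5.09 to 9.04 with 54 filled points, and the right panel spans -2.81 to 2.63 with none.

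The windows with the smallest p after knockdown were at Syt16, Rims3, Syt13, Rab3d, Rab4b and Cplx2, and none passed. Syt13 averaged 527 ± 59.3 scaled reads with the knockdown and 914 ± 18.8 with the empty vector (SD, n = 2 each, log2 change -0.80, adjusted p = 0.0988 by limma), and Rab3d 421 ± 23.8 and 682 ± 25.7 (-0.70, adjusted p = 0.1002). Rab4b, a GTPase of recycling endosomes, held 191 and 222 with the knockdown and 318 and 367 with the empty vector (-0.73, adjusted p = 0.117). Both knockdown libraries were under both empty-vector libraries at each of these 3 windows. Syt16 (1.19 and 1.398 against 10.6 and 21.3, adjusted p = 0.0687 by limma and 0.0209 by edgeR with the authors' scaling), Rims3 (4.78 and 5.59 against 0, adjusted p = 0.0689) and Cplx2 (0 in both knockdown libraries against 1.32 and 3.55, adjusted p = 0.117) had few reads. Without knockdown library 2, Syt16, Rims3, Syt13 and Rab3d had an adjusted p of 0.0288 and Rab4b of 0.0308. Stx1a, Vamp2 and Snap25 held 364 and 467, 947 and 1266 and 533 and 626 with the knockdown, with log2 changes of -0.16, -0.49 and -0.42 that did not pass (adjusted p = 0.441, 0.135 and 0.124).

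Against the knockdown libraries, betaTC3 was higher at 41 windows and lower at 22 by limma (63 of 118, where 60.6% of all windows passed, 36.6% higher and 24.0% lower). This comparison shares the betaTC3 libraries with the comparison against the empty vector, and its values stand beside it only as values. Cplx1 and Cplx2 changed by -2.89 and 9.01 against the knockdown and by -3.22 and 7.31 against the empty vector. Sytl4 changed by 9.56 and 8.83, and Rab27b by -4.51 and -5.09. Snap25 and Syt9, which did not pass against the empty vector, were higher than in the knockdown by 0.70 and 0.91 (adjusted p = 0.00664 and 0.00958 by limma). The count of 63 fell when betaTC3 library 1 was left out, and the share over all windows in that fit is not given.

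The deposited peak lists, 1 per library, placed a peak on most of these windows. A peak in all 6 lists covered 89 of 118 windows (75.4%, against 67.1% of all windows). Peaks in both betaTC3 lists and neither empty-vector list covered 14 windows (11.9%, against 12.9% of all windows), and the reverse was found at 6 (5.08%, against 11.2%). The 14 included Sytl4, where the authors' fold over background was 52.7 and 51.8, Rims3 (55.3 and 32.1) and Cplx2 (44.9 and 40.9). At Rab27b the fold was 15.5 and 20.1 in the empty-vector lists, with no betaTC3 peak. Cplx1 kept a peak in betaTC3, with a fold of 4.63 and 5.08 there and 53.9 and 61.2 in the empty-vector lists. These folds are the authors' values within each list.

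Peaks at the vesicle genes were wider at the median than all peaks of each list. Their median width was 1455 to 1653 bp per list, against 1129 to 1287 bp for all peaks. The widest was at Stx16, at 10553 to 12499 bp in the alphaTC1 lists and 2597 and 3005 bp in betaTC3. In betaTC3 the widest was at Snap25, at 4110 and 4476 bp, where the empty-vector lists had 4228 and 4046 bp. The lists also hold peaks outside the windows, and windows of the vesicle genes lay more often at gene starts (85.6%, against 65.5% of all windows). The greater median width is therefore not shown to be particular to these genes. Differences in width were not tested.

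A RefSeq promoter of 300 bases (250 before and 50 after the start) was matched for 76 of the 97 genes with a window within 1 kb of the start. All 32851 RefSeq promoters, set beside them here, include those of genes without a window. The differences below are therefore not shown to be a trait of vesicle genes. The 76 promoters were richer in CpG, with a median ratio of observed over expected CpG of 0.756, against 0.384 over the 32851 promoters. The ratio was 0.787 for the 64 genes with a peak in all 6 lists and 0.564 for the 9 with a peak in betaTC3 and not with the empty vector. GGGCGG occurred in 60 of 76 promoters (78.9%, against 35.7% of all), TGACG in 29 (38.2%, against 20.8%) and TATAAA in 3 (3.95%, against 13.6%). The full TGACGTCA occurred in 2 (2.63%, against 1.79%), GCGCATGCG in 5 (6.58%, against 1.75%), CAGCACC in 7 (9.21%, against 7.14%), GGACAG in 15 (19.7%, against 22.2%), TGCTGAC in 1 (1.32%, against 4.67%) and TGTTTAC in 2 (2.63%, against 3.65%). Both RE1 parts, 2 bases apart, occurred in none (against 0.0365%). All were searched on both strands, and TGACGTCA contains TGACG. A match describes letters only, and in the sequences printed above Rims3 has 5 matches and Stx1a 2.

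Partner genes outside the naming rule were taken from a list of 99 genes, of which 78 had 92 windows. Between betaTC3 and empty vector 8 windows were higher (8.70%, against 22.1% of all windows) and 30 lower (32.6%, against 33.2%) by limma. With libraries centred the counts were 26 and 32. After knockdown 0 passed (46 at an unadjusted p under 0.05, beside 34.97% of all windows, and 0 with edgeR and with DESeq2). Of 22 windows of SNARE disassembly and of intracellular SNAREs, 2 were higher (9.09%, against 22.1% of all windows) and 10 lower (45.5%, against 33.2%). Nsf, the ATPase that takes SNARE complexes apart, held 1519.9 and 1685 scaled reads in empty-vector cells, 1079 and 1410.1 in knockdown cells and 807 and 755 in betaTC3 (-1.04 in log2, adjusted p = 0.00278). Its adaptors Napa and Napb were lower (-0.90 and -0.68, adjusted p = 0.00417 and 0.0149). A further adaptor, Napg, did not pass (-0.02, adjusted p = 0.940 by limma), and its groups overlapped. Of 28 windows of Rab effectors and regulators, 3 were higher (10.7%, against 22.1% of all windows) and 9 lower (32.1%, against 33.2%). The higher ones were at Madd, Rabggta and Tbc1d1 (0.54, 0.71 and 0.93 in log2, adjusted p = 0.0382, 0.00760 and 0.00292 by limma).

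Rin2, an exchange factor for Rab5, held 674 and 758 scaled reads in empty-vector cells, 451 and 505 in knockdown cells and 8.78 and 15.2 in betaTC3 and was lower in betaTC3 (-5.83, adjusted p = 8.86e-06 by limma). Myrip, which links Rab27a to myosin on granules, held 340.3 and 359 scaled reads in empty-vector cells, 215 and 275 in knockdown cells and 115 and 101 in betaTC3 (-1.69, adjusted p = 0.0002403). Both betaTC3 libraries were under all alphaTC1 libraries at both genes. Of 33 windows of active zone and vesicle proteins, 2 were higher (6.06%, against 22.1% of all windows) and 10 lower (30.3%, against 33.2%). Sv2c, a vesicle membrane protein, held 637 and 708 scaled reads in empty-vector cells, 422 and 539 in knockdown cells and 59.1 and 63.8 in betaTC3 (-3.43, adjusted p = 1.14e-05). Rph3al (Noc2), a Rab effector of endocrine granules, was higher at a window 12225 bp into the gene (86.1 and 84.3 with the empty vector against 281 and 328 in betaTC3, adjusted p = 0.000546), and lower at one 28959 bp upstream (463 and 472 against 373 and 246, -0.63 in log2, adjusted p = 0.04298). Of 9 exocyst windows, with changes from -1.09 to 4.80 in log2, 1 was higher (11.1%, against 22.1% of all windows) and 1 lower (11.1%, against 33.2%). The lower one was at Exoc7, a subunit of that tethering complex, at 2075 and 2133 with the empty vector and 1029 and 948 in betaTC3 (adjusted p = 0.00156 by limma). It lies on chromosome 11. The partners named here were chosen after their values were seen.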

How the data were processed

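Chromatin immunoprecipitation libraries labelled H3K9me3 were measured in 2 replicates each of alphaTC1 with empty vector, alphaTC1 with Smndc1 knockdown and betaTC3, with 1 input per group, which was not used here. Per the submitters' processing notes, the tools were MACS2 2.2.7.1, Bowtie2 2.4.1 and Picard 2.19.2, with mm10 and GRCm38 as builds. The signal in the window table is scaled reads per window, deposited by the authors; how the factors were derived, and whether input was subtracted, was not found in the labels or headers. Each library was whole reads times 1 factor (100% of values whole, tolerance 0.001), so the reads were recovered. The deposited peak lists give per peak a MACS2 score (not used further), a fold over background, that is a ratio, and a -log10 q-value, all by the authors, with 1 list per library.

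Distances to gene starts are the authors' column, and distances to RefSeq starts used GRCm38. Values were tested as log2(scaled reads + 1) with limma 3.58.1, with an intensity trend, in 1 fit of the 6 libraries over all 17641 windows, with Benjamini-Hochberg adjustment and a threshold of 0.05. Fold changes on this scale understate the change of low windows, so folds in the text are ratios of mean scaled reads, ratios of pooled reads where a group held 1 to 3 reads, or bounds against 3 reads per library where it held none. The 95% intervals and the floors hold for counting error only: reads lacking molecular identifiers are not separate molecules. The fit was tested on simulated data. On the recovered reads, edgeR 4.0.16 called 74 of the 118 windows between betaTC3 and empty vector with TMM scaling and 58 with the authors' scaling, and DESeq2 1.42.0 called 68. Other alternatives were centring, pseudocounts of 0.1 and 5, a filter at a mean of 10 scaled reads, no intensity trend, a replicate block, a fit of the compared groups only, leaving out each library, windows within 1 kb of the gene start, stricter peaks and a larger overlap of peak and window. Scripts ran in Python 3.11.15 (numpy 2.4.6, pandas 2.3.3, matplotlib 3.10.9, scipy 1.17.1) and R 4.3.3.

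The members and lists were chosen with earlier results of these data known. The named genes are the exocytosis list, the 10 called windows with the largest change in each direction between betaTC3 and empty vector, the 6 with the smallest p after knockdown and the highest window of each family. A few genes of the list are not reported here. Other genes named in the families were chosen after their values were seen.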

Additional observations from a re-analysis of the deposited data

How the results depend on the processing

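Between betaTC3 and empty vector the count of 54 windows ranged from 37 to 63 when 1 library was left out and from 44 to 74 in the other settings; edgeR and DESeq2 were chosen after seeing the data. After knockdown, the count of 0 ranged from 0 to 54 when 1 library was left out, and became 6 with a pseudocount of 0.1, 2 without the intensity trend, 1 with only the compared groups and 1 by edgeR with the authors' scaling. Against the knockdown, betaTC3 gave 34 to 75 windows in place of 63 when 1 library was left out. Partner genes gave 58 in place of 38 with centring and 60 with edgeR and TMM scaling, and after knockdown 0 to 47 when 1 library was left out. Centring moved the median of the vesicle genes to 0.0647 for betaTC3 minus empty vector and to -0.0626 for knockdown minus empty vector. Peaks specific to 1 line covered 9 windows with stricter peaks in place of 20. The cause of these changes was not tested. Shares over all windows are given above only for centring, edgeR, DESeq2 and the fit without knockdown library 2. The other counts in this section therefore do not show whether the vesicle genes moved apart from all windows.

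Replicate numbers did not pair the libraries (correlation of deviations -0.0079, 0.085 and -0.176), and the replicate block gave 48, 0 and 59 windows for the 3 comparisons and 36 and 0 for the partners.

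Of 928 repeated values of named windows, 816 kept direction and side of the threshold, 31 lost the call, 48 gained it and 33 changed sign, none of them called (smallest adjusted p = 0.358). For betaTC3 minus empty vector in log2, with centring, edgeR with TMM scaling and DESeq2 in that order, Rab27a became 0.0917, 0.0840 and 0.141, Rab37 0.102, 0.119 and 0.212, the second window of Rab3a 0.114, 0.0129 and 0.111, Snap23 0.0228, 0.0151 and 0.0721, Vamp2 0.0691, 0.0614 and 0.118, Syt11 0.0220, 0.0014 and 0.0586, Syt4 0.0394, 0.0304 and 0.0850, and the start of Syt7 0.0053, 0.0173 and 0.0731. With DESeq2, Rab3c became 0.0212 and the second window of Rims2 0.0081. With 1 library left out, Rab37 ranged from -0.50 to 0.34, the second window of Rab3a from -0.46 to 0.32, Rims2 from -0.0929 to 0.56, Syt11 from -0.32 to 0.0016, and Syt7 from -0.45 to 0.10. With 2 libraries per group and 2.396 to 4.19 scaled reads as the floor, differences at windows near 0 in both groups were not detectable.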

Other observations

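Of 134 RefSeq genes with names of these families, 30 had no row in the window table. Among the 23 of these with a RefSeq start, 17 had no peak within 1000 bp of it in any list, and 5 had a peak there in all 6 lists. The 5 were Rab11b and Rab35, GTPases of recycling endosomes, Rab40c, Snap47, a relative of Snap25, and Stxbp4, a syntaxin-4 partner. The authors' fold over background at Stxbp4 was 92.4 and 77.1 in the empty-vector lists, 60.1 and 74.3 in the knockdown lists and 30.7 and 31.3 in the betaTC3 lists. At Rab11b it was 91.5 and 81.1, 33.4 and 42.6, and 41.1 and 40.6 in the same order. These genes were named after their values were seen, and folds from separate lists were not tested. No such gene had a peak in both betaTC3 lists and no alphaTC1 list, or the reverse.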
